A study of Helianthus annuus with 24 samples.

Results

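Major latex proteins (MLPs) are small proteins of the Bet v 1 fold, a family that also holds pollen and root allergens and the PR-10 proteins of plant defence. Their fold encloses a cavity that can hold lipids and other hydrophobic molecules, and the function of most members is not settled. Dirigent proteins have no known catalytic centre of their own. They steer the coupling of monolignol radicals towards lignans of one handedness, and other members act in lignin deposition and in defence.

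The contigs described here are those of the deposited sunflower (Helianthus annuus) table whose Arabidopsis match is AT1G24020, or whose Arabidopsis description contains "MLP-like" or "dirigent". The rule found 11 of 42063 contigs, 7 MLP-like and 4 dirigent-like. Of the MLP-like contigs, 5 match AT1G24020 (MLP423) and share the UniRef name of a dandelion root allergen, and 2 match AT1G70890 (MLP43). Of the dirigent-like contigs, 2 match AT1G64160 (DIR5), 1 matches AT1G58170 and 1 matches AT1G65870. The families were selected on their measured values: members are among the most abundant nectary contigs, and their nectary levels vary widely between lines. Nectary levels and differences between lines are therefore given as descriptions, and no p-value of any of the 11 contigs is printed for comparisons between lines. Calls of these contigs between lines, and counts of them, describe the fit and are no test.

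RNA came from leaf and from the floral nectaries of 7 greenhouse-grown lines, 8 groups of 3 libraries. Of the 6 interspecific crosses, the labels class 434 and 467 as high, 452 and 456 as medium, and 412 and 441 as low in nectar production. ER is a maintainer line with no nectar class, and no group carries a treatment. Nectaries were dissected from secreting florets of plants about 40 days old, and each nectary library pooled about 50 nectaries from different plants. Leaf carries the label of line 434 but is ER tissue in the series' design text, so its line is uncertain. Values are the authors' upper-quartile-normalized expression values, rounded to whole numbers and not divided by length, so levels are compared between libraries and not between contigs. The spacing of low values gave an estimated 8.45 to 16.09 M reads per library and 0.678 to 1.5 units per read.

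The nectary and leaf mesophyll markers matched the tissue labels. The 3 contigs matching the nectary factor CRC and the nectary sugar exporter SWEET9 summed to 26524 to 224460 in the 21 nectary libraries and to 117 to 148 in leaf, where 1 CRC contig was at 0. The 13 leaf mesophyll contigs (RBCS1B, LHCB6, PRK and RCA) summed to 287 to 1666 in nectary and to 633435 to 960466 in leaf. The 6 contigs matching ANX1 and ANX2, receptor kinases of pollen, summed to 1053 to 4679 in nectary and to 680 to 696 in leaf, but went both ways. The ANX1 contig Helianthus12194 was higher in nectary (700 to 4090, against 27 to 56 in leaf). The ANX2 contig Helianthus29498 was higher in leaf (525 to 566, against 16 to 476 in nectary). The 7 vascular contigs (SUC2, CESA4 and CESA7) summed to 5928 to 18089 in nectary and to 8533 to 13351 in leaf, where 2 CESA4 contigs and the CESA7 contig were at 0. A library of line 456, replicate 2, stood apart from the other replicates of its line. Its vascular sum was 18089, against 7342 and 5928 in replicates 1 and 3, and its leaf mesophyll sum was 1666, against 442 and 550. Its nectary sum was 32730, against 94720 and 92349. Over the 3 libraries of line 456 the SWEET9 contig averaged 45398 ± 33254 and the higher CRC contig (Helianthus1659) 27681 ± 1981 (SD). The drop of the nectary sum was thus one of SWEET9 and not of this CRC contig. In line 452 each library differed more than 2-fold from the log2 mean of the other 2 in 21.5% to 35.8% of contigs with a mean of at least 50, against 2.51% to 16.4% in the other groups.

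Helianthus356, the MLP423 match with the highest nectary level of the family, was one of the leading contigs of the table in several lines and differed widely among them. In the high lines its normalized value was 30051, 131303 and 37583 in line 434 and 12011, 13842 and 19203 in line 467. In the medium lines it was 91576, 55135 and 34827 in line 452 and 14078, 774 and 6915 in line 456. In the low lines it was 6255, 820 and 6943 in line 412 and 2341, 1950 and 568 in line 441. The line means did not follow the nectar class, since medium line 452 (60513 ± 28754) stood beside high line 434 (66312 ± 56409; SD, n = 3 each), and ER (24983 to 34535) lay above high line 467. In the order of the means, 434 and 452 overlapped, and the libraries of 467, 456, 412 and 441 overlapped with the next line in turn. ER was apart from its neighbours 452 and 467, though only narrowly from 452 (34535 against 34827). It overlapped with line 434, where replicate 1 (30051) lay within its range. The highest line mean was 40.9 times the lowest, and 94.7% of 38457 contigs with a nectary mean of at least 10 had a smaller spread of line means. Variation between lines was used to choose the families, so this share is a description. The ratio of the highest to the lowest line was 20.9 without replicate 2 of line 434 and 19.3 with the median of each line. Its rank by mean, without correction for length, was 9 in line 434, 6 in line 452, 16 in ER and 957 in line 441.

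Replicates of a line also differed for Helianthus356. The highest library was 4.37 times the lowest in line 434, 18.2 times in line 456 and 8.47 times in line 412, but 1.38 times in ER and 1.6 times in line 467. Across the 11 contigs the within-line SD of log2(value + 1) had a median of 0.88, against 0.48 over the 38457 contigs, and for Helianthus356 it was 1.25.

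Helianthus40906, a second MLP423 match, was high in the same libraries. It read 1661, 6127 and 980 in line 434, 805, 1058 and 999 in line 467, 6424, 2187 and 1242 in line 452, and 1157, 26 and 335 in line 456. In line 412 it read 285, 137 and 555, in line 441 it read 552, 267 and 292, and in ER it read 1441, 745 and 976. The highest library of line 434 was replicate 2 for both contigs and the lowest of line 456 was replicate 2 for both. The value of Helianthus40906 was 2.61% to 8.22% of that of Helianthus356 in the libraries of the high and medium lines and ER, but 13.7% to 51.4% in line 441, where Helianthus356 was lowest, and 16.7% in replicate 2 of line 412.

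**Figure D1:**
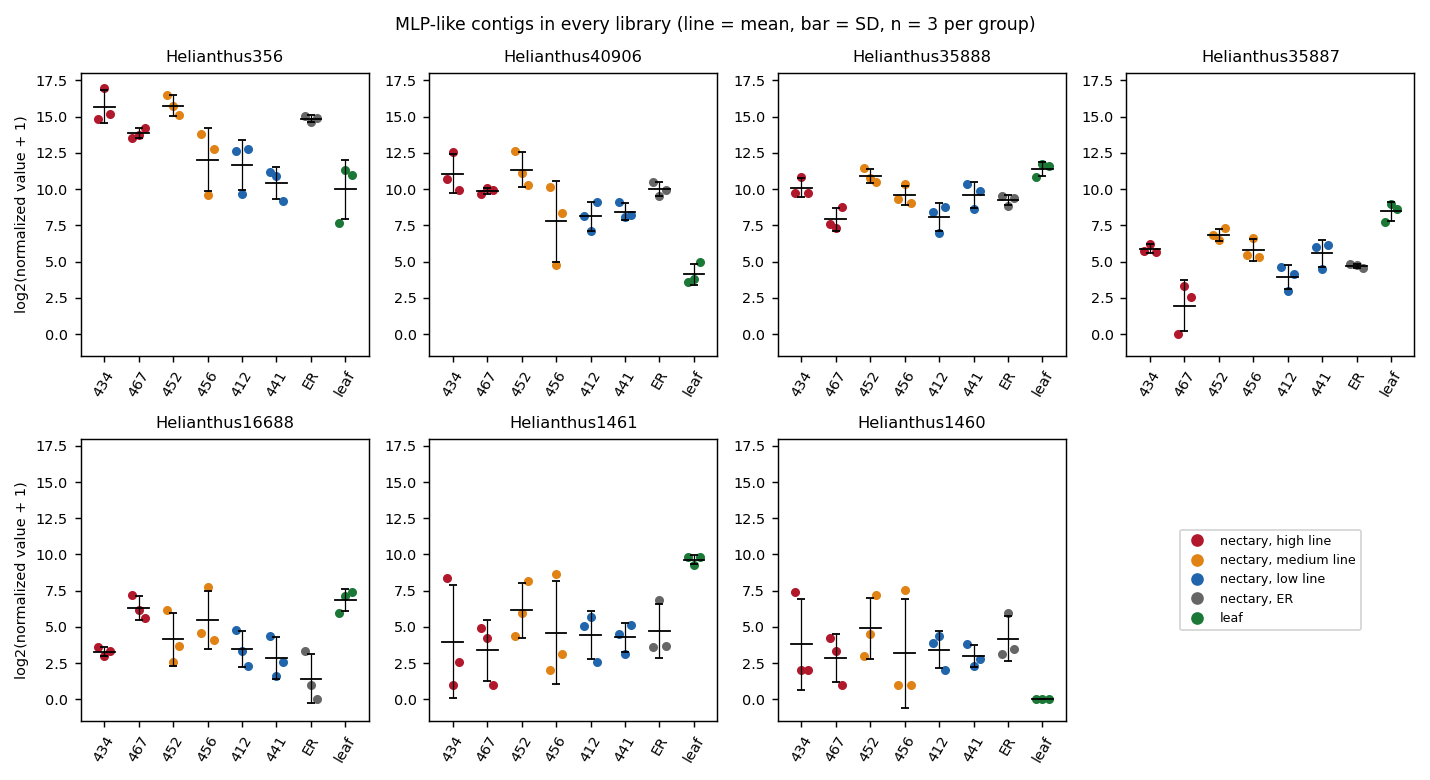
Normalized values of the 7 MLP-like contigs as log2(value + 1) on the y axis in each of 24 libraries, by nectary line and leaf on the x axis (points are libraries, horizontal lines are group means and bars are SD, n = 3). Helianthus356 and Helianthus40906 were highest in nectaries of lines 434 and 452, whereas Helianthus35888, Helianthus35887 and Helianthus1461 had their highest group mean in leaf.

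The other MLP423 matches had a higher mean in leaf than in the nectary of line 434. Helianthus35888 read 849, 1847 and 864 in the nectary of line 434, against 1821, 3398 and 3119 in leaf. Its other nectary libraries lay between 125 (line 412) and 2839 (line 452), and the line means spanned 7.53-fold (11.4-fold without replicate 3 of line 467), with line 467 (266.7 ± 156.3) the lowest and line 452 (2009 ± 736.4; SD, n = 3 each) the highest. Helianthus35887 read 53, 75 and 50 in line 434 nectary, against 215, 510 and 401 in leaf. It was the scarcest in line 467, at 0, 9 and 5. Helianthus16688 read 11, 7 and 9 in line 434 nectary, against 62, 142 and 170 in leaf, and among nectaries it was highest in line 467, at 147, 70 and 47. A single library of line 456, replicate 2, reached 214 for Helianthus16688, above all 3 leaf libraries.

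The MLP43 matches, Helianthus1461 and Helianthus1460, differed widely between libraries of one line. MLP43 has been linked to abscisic acid and drought responses in Arabidopsis. Helianthus1461 read 330, 1 and 5 in line 434, 29, 18 and 1 in line 467, 20, 60 and 285 in line 452, 3, 399 and 8 in line 456, and 11, 116 and 12 in ER. The low lines stood at 32, 51 and 5 (line 412) and 22, 8 and 34 (line 441), and leaf at 925, 623 and 892. Helianthus1460 was high in the same nectary libraries, at 172 in replicate 1 of line 434, 144 in replicate 3 of line 452, 183 in replicate 2 of line 456 and 62 in replicate 2 of ER, against 1 to 22 in the other 17. It was listed at 0 in all 3 leaf libraries. The value of Helianthus1460 was 17.6% to 62.1% of that of Helianthus1461 in the 11 nectary libraries where Helianthus1461 reached 20, and 0% in leaf, where Helianthus1461 was higher than in any nectary library.

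Helianthus36207, the DIR5 match with the highest nectary level among dirigent-like contigs, was higher in every nectary library than in leaf. DIR5 of Arabidopsis is related to DIR6, which directs formation of the lignan pinoresinol. Its value was 34545, 30825 and 41898 in line 434 and 22826, 22807 and 15965 in line 467. In the medium lines it was 11048, 6828 and 9364 in line 452 and 17841, 3462 and 15318 in line 456. The low lines had 6010, 4379 and 4692 in line 412 and 21553, 7661 and 13820 in line 441, and ER had 47415, 52665 and 57794. ER was above every other library, line 434 came next and was apart from line 467, and the libraries of 467, 441, 456 and 452 overlapped with the next line in turn. Line 412 had the lowest mean and was apart from line 452, its neighbour in this order, but replicate 2 of line 456 (3462) lay below all 3 of its libraries. The line means spanned 10.5-fold. The sum of the nectary marker contigs was also highest in ER (166473 to 224460) and line 434 (150915 to 172484). It was 26524 to 94720 in the other lines. This followed the SWEET9 contig, with means of 166600 in ER, 135090 in line 434 and 16117 to 45398 in the other lines. The higher CRC contig (Helianthus1659) had line means of 19846 to 27681, the highest in line 456. Whether either marker bears on the order of Helianthus36207 was not tested. The 4 dirigent-like contigs together took 0.426% ± 0.033 of the normalized total in ER, 0.296% ± 0.0465 in line 434, 0.0494% ± 0.00826 in line 412 and 0.00112% ± 0.000476 in leaf (SD, n = 3 each).

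Helianthus36206, the other DIR5 match, varied alongside Helianthus36207 (r = 0.96, rho = 0.95 over the 21 nectary libraries on the log2 scale). It read 129, 123 and 170 in line 434, 164, 218 and 208 in ER and 31, 16 and 19 in line 412. It ran from 50 to 78 in line 467, 25 to 56 in line 452, 23 to 90 in line 456 and 22 to 74 in line 441. Its value was 0.267% to 0.664% of that of Helianthus36207 in the 21 nectary libraries, with a median of 0.373%, while the value of Helianthus36207 itself ran from 3462 to 57794. The counting method is not given in the sources used here, so reads of one transcript could have been split between contigs of the same match. For Helianthus35887 and Helianthus35888 the ratio was 0% to 10.9% in nectary and 11.8% to 15% in leaf.

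**Figure D2:**
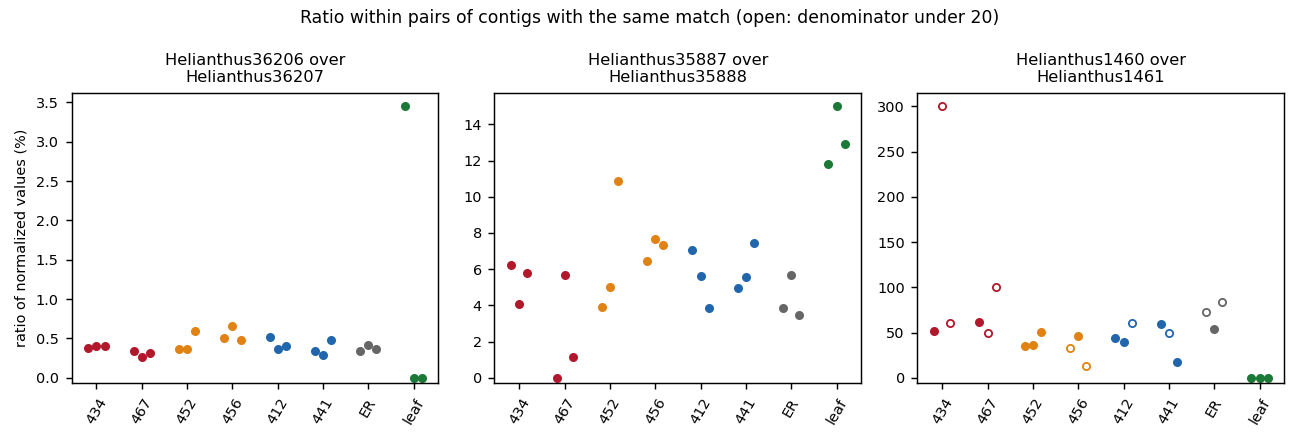
Ratio of the normalized values of 2 contigs with the same Arabidopsis match, in percent on the y axis, for each library by nectary line and leaf on the x axis (open points, denominator under 20). The ratio of Helianthus36206 to Helianthus36207 stayed between 0.267% and 0.664% in nectary, whereas Helianthus1460 was at 0% of Helianthus1461 in the 3 leaf libraries and at a median of 50.5% in the 21 nectary libraries.

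Helianthus37052, which matches AT1G58170, was highest in lines 434 and ER. It read 1128, 1160 and 1250 in line 434, 438, 287 and 530 in line 467, 217, 38 and 35 in line 452, and 103, 52 and 118 in line 456. In line 412 it read 215, 212 and 204, in line 441 it read 195, 169 and 112, and in ER it read 988, 439 and 951. Line 434 was above every other library, and the medium and low lines overlapped. Helianthus25400, which matches AT1G65870, varied least, with line means from 62.67 ± 16.2 in line 467 to 132.7 ± 19.14 in line 412 (SD, n = 3 each). Its line means spanned 2.12-fold, near the median of 2.44-fold over the 38457 contigs, against a median of 10.1-fold over the 11 contigs (both with 1 added to each mean). The families of these 11 were chosen for such variation, so the medians are descriptions.

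**Figure D3:**
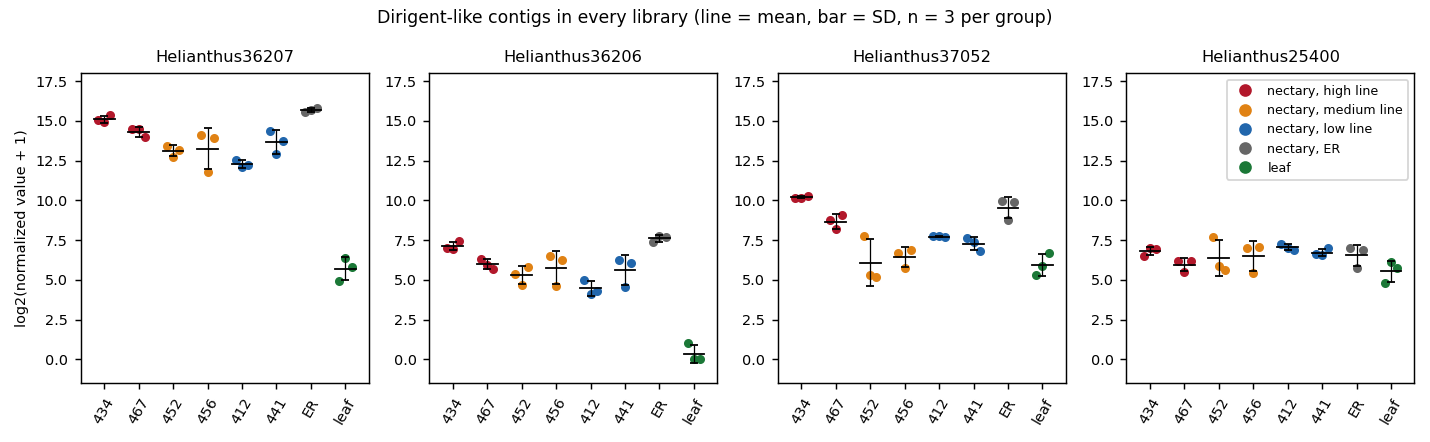
Normalized values of the 4 dirigent-like contigs as log2(value + 1) on the y axis in each of 24 libraries, by nectary line and leaf on the x axis (points are libraries, horizontal lines are group means and bars are SD, n = 3). Helianthus36207 and Helianthus36206 were highest in ER and line 434 and lowest in leaf, and Helianthus25400 varied little between lines.

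The nectary of line 434 was compared with leaf, the tissue pair the labels assign to the same line. All 4 dirigent-like contigs and 3 of the MLP-like contigs were called higher in nectary, and the other 4 MLP-like contigs were called lower (limma on log2(value + 1), Benjamini-Hochberg adjusted p under 0.05 over 39981 contigs). Among all contigs tested, 39.6% were called higher and 22% lower. The libraries did not overlap for 10 of the 11, where 45.6% of all contigs were higher and 25.4% lower without overlap. All 11 passed the filter, an average of 10 or more across the 24 libraries. Nectary abundance was used to choose the families, so nothing is read from these counts. For the same reason the adjusted p-values of single contigs given below are descriptions and no independent test. In these bulk samples fewer cells of a type and less RNA per cell cannot be told apart.

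Helianthus36207 averaged 35756 ± 5635 in line 434 nectary and 55.33 ± 26.01 in leaf, where its values were 29, 81 and 56 (SD, n = 3 each). This was a 646-fold difference of means, with a log2 change of 9.42 ± 0.47 (SE, limma adjusted p = 1.11e-12). Helianthus36206 averaged 140.7 ± 25.58 in nectary, against 1, 0 and 0 in leaf (limma adjusted p = 3.67e-10). Helianthus37052 averaged 1179 ± 63.26 against 66.33 ± 33.01 (log2 change 4.24 ± 0.52, limma adjusted p = 7.17e-07). The nectary and leaf libraries did not overlap for these 3 contigs, nor for Helianthus25400, at 90, 129 and 120 in nectary against 27, 68 and 52 in leaf. The log2 change of Helianthus25400 was 1.27 ± 0.5 (limma adjusted p = 0.0334), and the call was lost after rescaling (0.81, limma adjusted p = 0.16), with the ER nectary in place of line 434 (limma adjusted p = 0.0881), and without nectary replicate 2 or 3 or leaf replicate 1 or 3 (limma adjusted p = 0.0899, 0.0781, 0.16 and 0.0521).

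Among the MLP-like contigs, Helianthus40906 averaged 2923 ± 2796 in line 434 nectary, against 11, 13 and 30 in leaf (log2 change 6.96 ± 0.94, limma adjusted p = 2.71e-06). Helianthus356 averaged 66312 ± 56409, against 200, 2608 and 1979 in leaf (log2 change 5.71 ± 1.01, limma adjusted p = 6.93e-05), so that its leaf libraries differed 13-fold among themselves. In line 441 its nectary level (568 to 2341) overlapped with leaf. Helianthus35887, Helianthus16688 and Helianthus1461 were lower in nectary with no overlap, by log2 changes of -2.58 ± 0.65, -3.55 ± 1.03 and -5.66 ± 1.71 (limma adjusted p = 0.00213, 0.00588 and 0.00742). Without nectary replicate 2 the call of Helianthus1461 was lost (-4.17, limma adjusted p = 0.0561). Helianthus35888 overlapped in 1 library of each tissue (log2 change -1.28 ± 0.51, limma adjusted p = 0.0366), and its call was lost without nectary replicate 1 or 3 or leaf replicate 2 or 3 (limma adjusted p = 0.118, 0.115, 0.114 and 0.1). Helianthus1460 was called higher (limma adjusted p = 0.041), with nectary values of 172, 3 and 3 against 0 in leaf. Its call was lost without nectary replicate 1 (limma adjusted p = 0.278), without any one leaf library (limma adjusted p = 0.0766 to 0.0817) and with 5 added in place of 1 (limma adjusted p = 0.122).

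The median log2 change over all 39981 contigs was 0.48, over the 4 dirigent-like contigs 5.52 and over the 7 MLP-like contigs -1.28. The leaf mesophyll marker sum was 448 to 835 in line 434 nectary and 633435 to 960466 in leaf. The vascular sum was 8443 to 10602 in nectary and 8533 to 13351 in leaf, but its contigs differed. The SUC2 contig Helianthus38937 averaged 9585 in line 434 nectary and 6274 in leaf. The SUC2 contig Helianthus11104 averaged 18.67 and 4462, and the CESA4 contig Helianthus30792 10.67 and 27.67. Whether mesophyll or vascular content bears on the contigs that were lower in nectary was not tested.

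The study classed its lines by nectar production, and the high lines 434 and 467 were set against the low lines 412 and 441 on the 21 nectary libraries. Helianthus356 stood at 12011 to 131303 in the high lines (median 24627) and at 568 to 6943 in the low lines (median 2146), so that the classes did not overlap, and its mean was 12.9 times higher, or 7.16 times without replicate 2 of line 434. Helianthus40906, at 805 to 6127 against 137 to 555, and Helianthus37052, at 287 to 1250 against 112 to 215, did not overlap either, where 8.17% of all contigs were higher and 7.98% lower without overlap. Helianthus36207 averaged 28144 ± 9407 in the high lines and 9686 ± 6762 in the low lines, with overlap through replicate 1 of line 441 (21553). These SD are over 6 pools from only 2 lines per class. The log2 changes were 3.71 ± 0.65 for Helianthus356, 2.19 ± 0.69 for Helianthus40906, 1.93 ± 0.36 for Helianthus37052, 1.73 ± 0.33 for Helianthus36207 and 1.52 ± 0.34 for Helianthus36206 (SE). The SE measure the spread among pools within lines and not the spread between lines of a class.

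In the fit over the whole table, 12.3% of 38457 contigs were called higher and 18.9% lower in the high lines, and these 5 of the 11 fell among the higher ones. The families were chosen for differences between lines, so for them this count is a description and no test, and nothing is read from it. The other 6 had log2 changes of -0.83 to 1.64, and their classes overlapped, as did those of Helianthus36207 and Helianthus36206. The medium lines did not lie between the classes for each contig: Helianthus356 ran from 774 to 91576 in them, and Helianthus37052, at 35 to 217 (median 77.5), was below the median of the low lines (199.5).

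**Figure D4:**
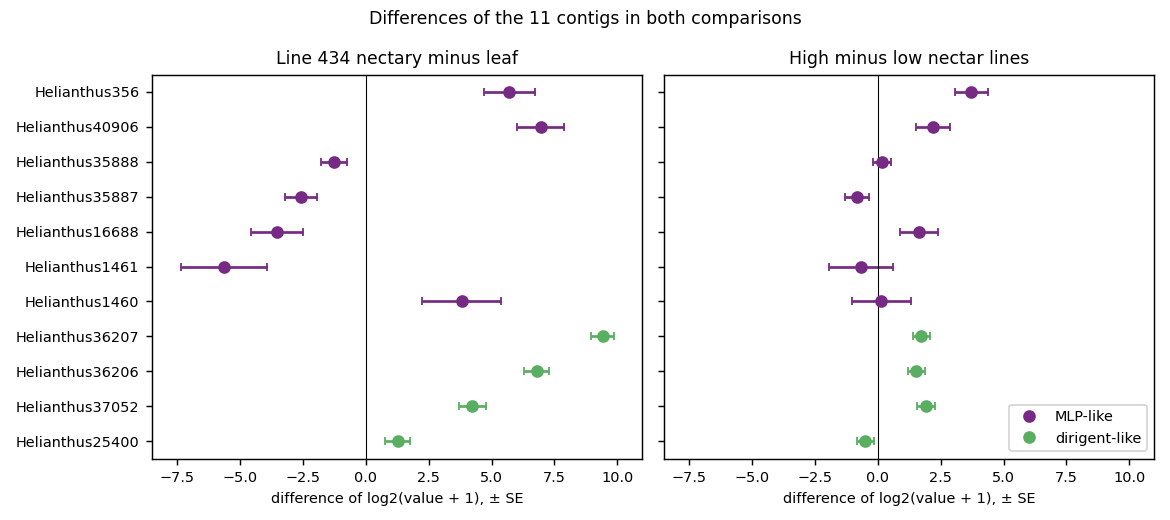
Difference of log2(value + 1) with its SE on the x axis for each of the 11 contigs on the y axis, for line 434 nectary minus leaf and for high minus low nectar lines. The SE measures the spread among libraries within groups and not the spread between lines of a class. The dirigent-like contigs were all above 0 in the first comparison, where the MLP-like contigs lay on both sides of 0, and Helianthus25400 was below 0 in the second at -0.50.

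The contigs with the most similar pattern were sought among 14953 contigs with an Arabidopsis match and a nectary mean of at least 50, by Pearson correlation of log2 values over the 21 nectary libraries. These libraries share lines, so r and Spearman's rho are descriptions. For Helianthus356 the closest were matches to the glutathione S-transferases GSTF8 (Helianthus23154, r = 0.97, rho = 0.97) and GSTF2 (Helianthus29536, r = 0.96, rho = 0.94). The ABC transporter match described as pleiotropic drug resistance 1 (Helianthus35937, r = 0.96, rho = 0.94) lay between them. Next came the fatty acid desaturase FAD2 (Helianthus7163, r = 0.95, rho = 0.92) and an alpha/beta-hydrolase (Helianthus36598, r = 0.94, rho = 0.87). Helianthus23154 ran from 61 to 7727 in nectary and Helianthus7163 from 109 to 45765.

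For Helianthus36207 the closest were matches to the nitrate transporter NRT1.1 (Helianthus9427, r = 0.93, rho = 0.91) and a P-loop nucleoside triphosphate hydrolase (Helianthus22825, r = 0.93, rho = 0.94). A MATE efflux transporter (Helianthus23002, r = 0.92, rho = 0.92), UDP-glucose pyrophosphorylase 1 (Helianthus34857, r = 0.92, rho = 0.91) and a SAR-type GTPase of the secretory pathway (Helianthus25875, r = 0.92, rho = 0.96) followed. Helianthus25875 ran from 369 to 4665 in nectary. No contig was on the lists of closest patterns of both Helianthus356 and Helianthus36207.

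Monolignols are the substrates on which dirigent proteins act, and the enzymes of that route were listed beside them. Of 34 contigs matching the route, 33 could be tested in line 434 nectary against leaf, where 11 were higher, 9 lower and 13 not called (61.6% of all contigs were called). In the high against the low lines 14 of 32 were higher, 5 lower and 13 not called (31.2% of all contigs were called). The median log2 change was 0.87, against -0.01 over all contigs. The class p-values measure the spread among pools within lines and not the spread between lines of a class. With the line as the unit, limma called only 92 of 38457 contigs higher and 208 lower. The methyltransferase COMT1 (Helianthus29223) averaged 13810 ± 754.1 in line 434 nectary, against 390 ± 112.4 for leaf (log2 change 5.19, limma adjusted p = 4.55e-11). Among nectaries it averaged 16589 ± 1451 in line 467, against 13844 ± 2477 in line 412 and 2492 ± 419.9 in line 441, so that the class difference (log2 change 1.38, limma adjusted p = 0.000179) rested on the low value of line 441. Another COMT1 match, Helianthus10256, was higher in both high lines, at 3477 ± 307.4 in 434 and 1911 ± 478.4 in 467, against 791.7 ± 14.5 in 412 and 690 ± 149.4 in 441 (limma adjusted p = 9.41e-07). The ferulate 5-hydroxylase F5H (Helianthus30697) was lower in the high lines, at 2523 ± 561.4 in 434 and 1983 ± 330.6 in 467, against 5369 ± 1082 in 412 and 10844 ± 946.2 in 441 (limma adjusted p = 9.38e-07). PRR1 (Helianthus10288), a pinoresinol reductase that acts after the dirigent step, was named after its values were seen. Its means were 146.7 ± 31.07 in 434 and 37.67 ± 4.163 in 467, against 195 ± 24.02 in 412 and 138.7 ± 18.01 in 441 (log2 change -1.14, limma adjusted p = 0.000759). The mean of line 434 was above that of line 441, so the class difference rested on the low value of line 467.

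The abscisic acid receptors of the PYR/PYL family share the fold of MLPs. Of 12 contigs, 11 were tested, and 1 was higher, 2 lower and 8 not called in line 434 nectary against leaf, where 39.6% of all contigs were called higher and 22% lower. In the high against the low lines 1 was higher, 6 lower and 4 not called, where 12.3% of all contigs were called higher and 18.9% lower. The median log2 change was -0.70, against -0.01 over all contigs. A PYL9 match, Helianthus37122, averaged 1128 ± 145.2 in line 434 and 1716 ± 141 in line 467, against 2105 ± 114.2 in 412 and 2425 ± 425.3 in 441 (SD, n = 3 each, limma adjusted p = 0.017). The other PYL9 matches, named whatever their level, differed. Helianthus37121 was also lower (log2 change -2.61, limma adjusted p = 0.000665), and Helianthus37627 was not called (-0.01). Helianthus4607 was the 1 higher contig (log2 change 3.1, limma adjusted p = 5.03e-10), with a mean of 2 in line 412 against 237 in line 441. These p-values also measure the spread among pools within lines. PYR1 (Helianthus21059) was lower in line 434 nectary than in leaf, at 98.33 ± 13.5 against 464 ± 62.23 (limma adjusted p = 5.62e-06).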

How the data were processed

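The values are an expression score: per the file headers the authors upper-quartile-normalized the reads of each assembled contig, and they deposited whole numbers, which are not counts. The header of ER replicate 3 names no normalization, but the upper quartile of its values above 0 was 201.25, against 201 in the other libraries. Assembly, aligner and counter: not given in the sources used here. Libraries were TruSeq RNA v2 with 50-base paired ends, per the labels' protocols. The 16 deposited summary columns stayed unused. Contigs carry no sunflower gene identifier, so the RefSeq gene table was not joined, and no contig sequence or length was analysed here.

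Reads behind each value were estimated from the spacing of low values, a step tested on simulated data. Contigs averaging 10 or more entered the fit, 1 was added before log2, and limma (3.58.1, under R 4.3.3) estimated group means with a variance trend, over 24 libraries for nectary against leaf and over 21 for high against low. A call is a Benjamini-Hochberg adjusted p under 0.05 over all contigs. The fit was tested on simulated data. The added 1 understates changes of low contigs. Nectary pools came from different plants, and every p-value measures the spread among such libraries. The p-values between nectar classes therefore do not measure the spread between lines of a class. Replicates differed beyond sampling noise (chi-square per degree of freedom 9.43 to 78.3).

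The members, gene lists and tests were chosen with earlier results of these data known. All 11 contigs are named under the rule (the 8 with the highest group mean per family). List contigs come from the 6 with the highest group mean unless said otherwise. Alternatives were an added 5, a minimum average of 50 or none, rescaling by median ratio, the replicate block, fewer groups in the fit, other nectary lines against leaf, the line as the unit, and each library left out. Leaving out replicate 2 of line 456 and the alternatives for the level by line and for the class ratio of Helianthus356 were chosen after seeing the data. Describing and plotting used Python 3.11.15 with pandas 2.3.3, numpy 2.4.6, scipy 1.17.1, and for figures matplotlib 3.10.9.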

Additional observations from a re-analysis of the deposited data

Results flagged for a closer look

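Dixon's test was run on the normalized values without log2, within the 6 libraries of each nectar class. In 6 of 33 sets the gap of a library to its nearest neighbour exceeded the 95% critical value. Chance passes it in about 1 of 20 sets of independent, normally distributed values. Here the sets join lines which differ. Contigs flagged in the same library also varied together, Helianthus1461 with Helianthus1460 (r = 0.95) and Helianthus40906 with Helianthus356 (r = 0.89). The flags are thus not independent, and their count cannot be set against that rate. In the high lines, replicate 2 of line 434 reached 131303 for Helianthus356, against 12011 to 37583 in the other libraries, and 6127 for Helianthus40906, against 805 to 1661. Replicate 1 of line 434 reached 330 for Helianthus1461, against 1 to 29, and 172 for Helianthus1460, against 1 to 18. In the medium lines, replicate 2 of line 456 reached 214 for Helianthus16688, against 5 to 71, and replicate 1 of line 452 reached 6424 for Helianthus40906, against 26 to 2187.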

How the results depend on the processing

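In line 434 nectary against leaf, 6 or 7 members were called higher and 3 or 4 lower under the settings that kept all libraries. Leaving out 1 library of either tissue gave 5 to 6 higher and 3 to 4 lower. Rescaling by median ratio moved the median change over all contigs to 0.01, against 0.48, and the split of all contigs to 11618 higher and 12248 lower, against 15850 and 8778.

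In the high against the low lines, fitting only the groups compared called 6 members higher and 1 lower, with 8834 contigs higher in all, against 4718. With the line as the unit, limma called 92 of 38457 contigs higher and 208 lower, and 6692 had an unadjusted p under 0.05. Of the members, 0 were called and 4 had an unadjusted p under 0.05. These counts for members, chosen for differences between lines, describe the settings and are no test. Leaving out replicate 3 of line 452 called 8394 contigs higher and 5 members. Leaving out 1 library of the compared lines called 4 to 5 members higher, with Helianthus40906 not called without replicate 2 of line 434 or of line 412. The changes of 3 contigs that were not called crossed 0 when 1 library was left out, between -1.77 and 0.073 for Helianthus1461, -0.778 and 0.592 for Helianthus1460, and -0.102 and 0.352 for Helianthus35888. Without replicate 2 of line 456, 7 and 4 members were called in nectary against leaf and 5 and 0 in high against low.

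The ratio of line 434 to line 441 for Helianthus356 and its ratio between the classes moved by over 1.5 times without replicate 2 of line 434, and that of line 452 to line 412 for Helianthus40906 was 5.26 without replicate 1 of line 452 and 15.6 without replicate 3 of line 412. The ratio of line 456 to line 467 for Helianthus1461 was 0.444 with the median of each line, and 0.344 to 14.4 with 1 library left out, the lowest without replicate 2 of line 456. For Helianthus1460 the ratio of line 456 to line 441 was 0.167 with medians and 0.13 to 12.3. For Helianthus16688 the ratio of line 467 to ER was 70 with medians and 17.6 to 176, the highest without ER replicate 1, and for Helianthus35887 that of line 452 to line 467 was 17 to 47.5, the highest without replicate 2 of line 467. The cause was not tested.

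With the replicate number as a block, 7 members were called higher and 4 lower in nectary against leaf, and 5 and 0 in high against low, the counts found without it. Same-numbered libraries of line 434 nectary and leaf had deviations correlated at 0.03 to 0.09, and each of the 6 correlated best with its own number, a hint from the data and not from the design. Between the high and low lines the correlations were -0.16 to 0.17, with 3 of 18 above 0.1. No label says that a number marks a shared plant or day.

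Depth limits the contigs at a few units, where 1 read was worth 0.678 to 1.5 units. With 3 pools per line, the spread of a line is known only roughly.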

Other observations

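Outside the rule, 16 contigs described as polyketide cyclase proteins, a name Arabidopsis uses for other proteins of this fold, were looked at after their values were seen. In line 434 nectary against leaf 4 were higher, 8 lower and 4 not called in limma, where 39.6% of all contigs were called higher and 22% lower. In the high against the low lines 4 of 15 tested were higher, 2 lower and 9 not called, where 12.3% of all contigs were called higher and 18.9% lower. One of the 2 lower contigs in the high lines, Helianthus25679, matches AT1G70880. It averaged 70.67 ± 23.18 in line 434 and 263.7 ± 139.9 in line 467, against 379 ± 100.7 in line 412 and 559.3 ± 76.43 in line 441 (SD, n = 3 each). It was listed at 0 in all 3 libraries of medium line 456.

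For Helianthus1461, picked after its values were seen, the closest patterns over the 21 nectary libraries were those of Helianthus2731, which matches a LON domain protein (r = 0.80, rho = 0.81), and Helianthus3420, which matches an ARM repeat protein (r = 0.78, rho = 0.81). A dehydrin match, Helianthus31382, came later (r = 0.74, rho = 0.73), with nectary values from 3 to 2078.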
